A study of Mus musculus with 8 samples.

Results

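The genes described here encode the main hepatocyte growth factors, their receptors and close regulators: Hgf, Hgfac, Met, Egfr, Erbb2, Erbb3, Errfi1, Hbegf, Tgfa and Egf. They were chosen by symbol, and all 10 were found among the 48440 genes of the count table and were among the 18274 genes with enough reads to test. RNA was sequenced from the whole liver of 8 neonatal CD1 mice, collected at 3 to 8 days of age. The knockout livers, from animals 275, 276, 277 and 278, carried a germline deletion of Myo5b, the gene of the vesicle motor myosin Vb. The control livers, from littermates 279, 280, 281 and 282, were heterozygous or wildtype, and the labels do not say which. The deletion is in every cell of the body, so a difference between the livers need not arise in hepatocytes, and neither the exons removed nor the age and litter of each pup are given in the sources used here.

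Hepatocyte growth factor (HGF) is secreted as an inactive chain, mostly by stellate and endothelial cells of the liver, and becomes active when proteases such as the HGF activator (HGFAC) cut it. Its receptor is the tyrosine kinase MET on hepatocytes. The epidermal growth factor receptor (EGFR) and its relatives ERBB2 and ERBB3 are a second family of receptor kinases, bound by ligands such as EGF, TGF-alpha and HB-EGF that are made as membrane-anchored precursors and shed by ADAM proteases. MET and EGFR are regarded as the principal mitogen receptors of hepatocytes, and ERRFI1 is a feedback inhibitor that binds the EGFR kinase.

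Library totals ran from 14228268 to 18398039 counts. Myo5b itself was 49.3 ± 7.06 CPM in knockout and 133 ± 33.1 CPM in control livers (CPM, TMM-scaled read counts relative to library size; SD, n = 4), and knockout and control values did not overlap. Hepatocyte markers were abundant in every liver, with a summed level of 87904 to 99881 CPM in knockouts and 110699 to 138881 CPM in controls, and of 10 such genes 1 rose and 3 fell, among them Alb (log2 fold change -1.08). Erythroid markers fell in all 15 of 15 genes, with a summed level of 609 to 1297 CPM in knockout and 2537 to 3657 CPM in control livers, and proliferation markers fell in all 10 of 10. Megakaryocyte markers fell in 4 of 8 genes, neutrophil markers in 1 of 8, and B cell precursor markers rose in 1 and fell in 2 of 6. Cholangiocyte markers passed in 0 of 7 in edgeR, DESeq2 and limma-voom (0 at an unadjusted p under 0.05), and of 8 pancreas and gut genes 2 were tested and 1 rose. Over all genes tested, 9.27% rose and 11.4% fell. In whole tissue, fewer cells of a type and less RNA per cell cannot be told apart.

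In edgeR's quasi-likelihood test, with an adjusted p of 0.05 as the threshold, 3 of the 10 genes were higher and 1 was lower in knockout livers. Over all genes tested the share called was 20.7%, with 9.27% higher and 11.4% lower. Of these calls 44.8% were higher, and 57.6% with library size as the only scaling. Hgf, Hgfac and Egfr rose by nearly the same factor, and Met fell. The remaining 6 genes did not pass the test, and their knockout and control values overlapped. The median log2 fold change was 0.25 over the 10 genes and 0.01 over all genes. The groups did not overlap for 4 of the 10 genes, beside 23.6% of all genes tested.

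**Figure D1:**
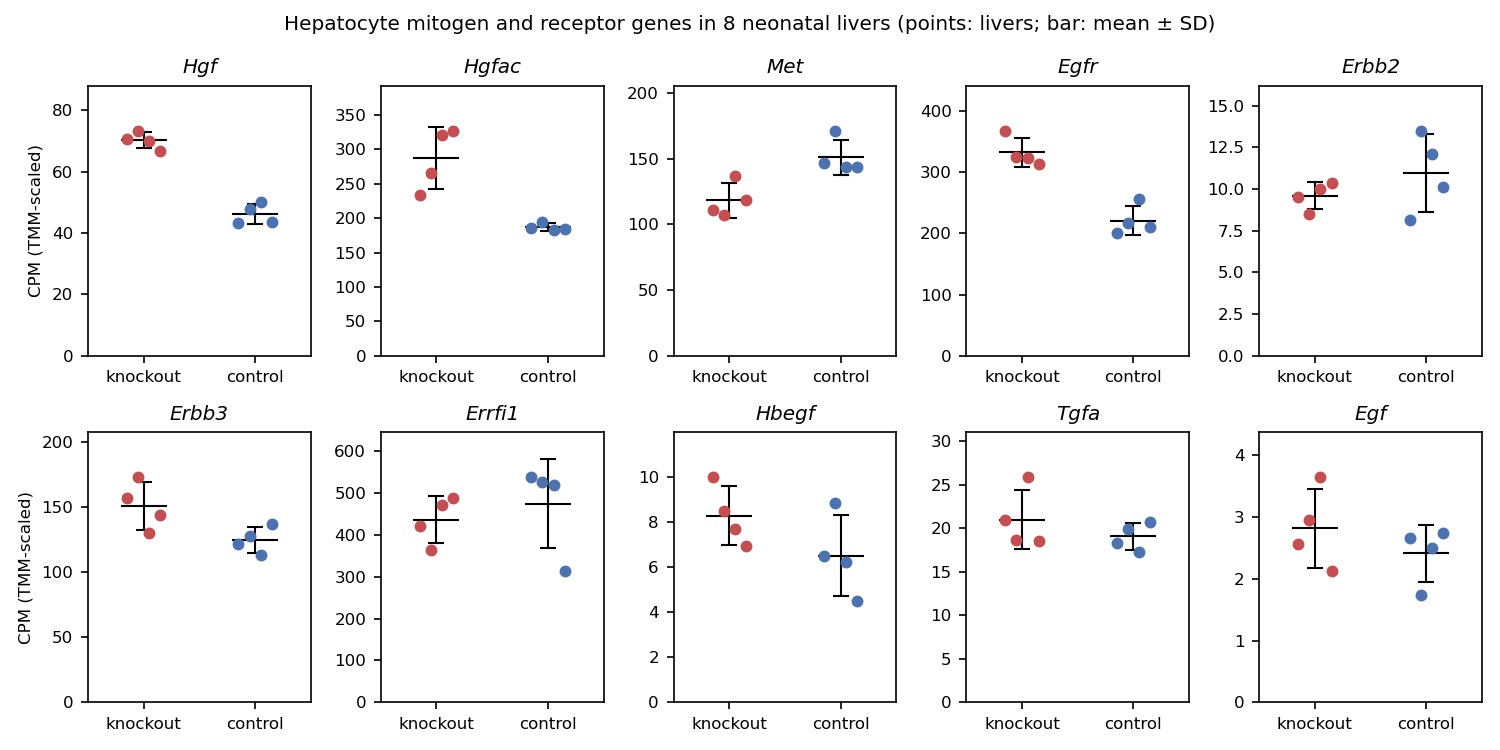
Level of each gene in each liver, in CPM scaled by TMM on linear axes that start at 0; points are livers and bars give the mean ± SD of 4. Hgf, Hgfac and Egfr lay higher in every knockout liver than in any control, Met lay lower, and the groups overlapped for the other genes.

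Sequence just before the annotated start of the 4 genes that passed is shown because 3 of them rose together by a similar factor and Met moved the other way. The sequences are from RefSeq (GRCm38.p6), whose table held 8 of the 10 genes, and are written 5′ to 3′ on the strand of the gene, which is the plus strand for all 4. They are Hgf at chr5:16553245-16553494, Hgfac at chr5:35041259-35041508, Egfr at chr11:16751953-16752202 and Met at chr6:17463707-17463799. For the first 3 these are the 250 bases before the start. The corresponding Met window runs 157 bases further, into the first exon of GENCODE M21, and only the 93 bases before that exon are printed. Capitals mark matches to 7 motifs searched on both strands, namely the GC box GGGCGG, the CCAAT box CCAAT, the TATA box TATAAA, the AP-1 site TGANTCA, the CRE TGACGTCA, the E-box CACGTG and the STAT site TTCNNNGAA. For Hgf the first of 2 starts in the table is shown.
Hgf: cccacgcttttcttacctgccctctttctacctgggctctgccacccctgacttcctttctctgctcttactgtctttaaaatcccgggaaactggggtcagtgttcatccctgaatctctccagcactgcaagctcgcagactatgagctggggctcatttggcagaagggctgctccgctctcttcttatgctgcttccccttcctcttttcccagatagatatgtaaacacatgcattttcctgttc
Hgfac: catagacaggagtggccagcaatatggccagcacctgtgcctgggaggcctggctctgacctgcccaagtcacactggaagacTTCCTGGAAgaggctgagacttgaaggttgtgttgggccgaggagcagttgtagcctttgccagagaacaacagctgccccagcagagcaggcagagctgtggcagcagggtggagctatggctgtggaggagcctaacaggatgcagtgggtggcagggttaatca
Egfr: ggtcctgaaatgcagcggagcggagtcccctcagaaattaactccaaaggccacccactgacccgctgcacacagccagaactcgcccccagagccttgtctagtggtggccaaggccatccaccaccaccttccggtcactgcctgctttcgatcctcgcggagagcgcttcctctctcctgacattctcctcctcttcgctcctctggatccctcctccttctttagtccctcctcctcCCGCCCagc
Met: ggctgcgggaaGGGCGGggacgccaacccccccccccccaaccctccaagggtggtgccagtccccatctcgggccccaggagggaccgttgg

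The 3 windows of the genes that rose had none of the 7 motifs in common. Whether these sequences bear on the changes was not tested. The Hgfac window held 1 STAT site, TTCCTGGAA, which begins 167 bases before the start, and 7.02% of the 32851 windows in the table hold such a match. The Egfr window held 1 GC box on the opposite strand, a motif that 32.7% of windows hold, and the Hgf window held none of the 7. The full 250-base Met window held 3 GC boxes, of which the first is in the stretch printed, 1 E-box (6.02% of windows) and 1 AP-1 site (6.75% of windows), and none of these overlapped. Its GC content was 74.0%, against 60.8% for Egfr, 58.4% for Hgfac, 50.8% for Hgf and a median of 52.4% over all windows.

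Hgf, the ligand of MET (chromosome 5, 16553495 to 16620152 on GRCm38), was higher in the knockout livers. Its level was 70.7, 73.2, 70.0 and 66.9 CPM in knockouts 275, 276, 277 and 278, and 43.2, 47.8, 50.1 and 43.6 CPM in controls 279, 280, 281 and 282. The lowest knockout thus lay well above the highest control, and the knockouts varied little among themselves. The means were 70.2 ± 2.62 and 46.2 ± 3.33 CPM (SD, n = 4), a 1.52-fold difference with a log2 fold change of 0.60 (SE 0.09; edgeR adjusted p = 1.00e-04). The call held whichever single liver was left out, at log2 fold changes of 0.57 to 0.64. Exons of Hgf overlap those of Gm43489 on the same strand, so reads in the shared stretch cannot be assigned to either by strand.

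Stellate and endothelial markers, which mark the cells known to make HGF, moved in the same livers. Of 12 stellate and mesenchymal markers 4 rose and 2 fell, with a summed level of 1702 to 1813 CPM in knockout and 1940 to 2530 CPM in control livers. Those that rose were Dcn (log2 fold change 0.58), Hand2 (0.69), Pdgfra (0.53) and Lrat (0.49), and the collagen genes Col1a1 (-0.46) and Col3a1 (-0.53) fell. Of 10 endothelial markers 6 rose and none fell, with summed levels of 1342 to 1602 CPM in knockout and 1086 to 1150 CPM in control livers. Kupffer cell and macrophage markers rose in 9 of 10 genes, with 1558 to 1805 against 866 to 993 CPM. Over all genes tested, 9.27% rose and 11.4% fell. The part of these marker shifts in the Hgf difference was not tested.

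Hgfac (chromosome 5, 35041509 to 35048461), which encodes the serine protease that activates pro-HGF and is made by hepatocytes, was also higher. Knockouts 275, 276, 277 and 278 had 233, 266, 321 and 326 CPM, and controls 279 to 282 had 186, 194, 182 and 185 CPM. The controls were tightly grouped while the knockouts spread over a wider range, all of it above the controls. The means were 287 ± 45.04 and 187 ± 5.40 CPM (SD, n = 4), a 1.53-fold difference with a log2 fold change of 0.62 (SE 0.10; edgeR adjusted p = 2.97e-04), and with any single liver left out it stayed called, at 0.55 to 0.71.

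Met (chromosome 6, 17463800 to 17573980), the HGF receptor, was lower in the knockout livers. Its level was 111, 107, 137 and 118 CPM in the knockouts and 146, 171, 144 and 143 CPM in the controls, in order of animal number. Knockout 277 came within a few CPM of the controls, but the groups did not overlap. The means were 118 ± 13.4 and 151 ± 13.3 CPM (SD, n = 4), 1.28-fold lower in the knockouts, with a log2 fold change of -0.35 (SE 0.09; edgeR adjusted p = 0.0118). The call held whichever liver was left out, at -0.44 to -0.29, with edgeR adjusted p up to 0.0457. The summed hepatocyte markers were lower too, at 87904 to 99881 CPM in knockouts and 110699 to 138881 CPM in controls. Of those 10 genes 1 rose and 3 fell, with a median log2 fold change of -0.14, whereas Hgfac, also made by hepatocytes, rose. The part of the hepatocyte marker shift in the Met and Hgfac differences was not tested.

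Egfr (chromosome 11, 16752203 to 16918158) rose in the same livers in which Met fell. It stood at 367, 325, 323 and 313 CPM in the knockouts and at 200.01, 217, 256 and 211 CPM in the controls. Every knockout lay above every control, of which control 281 was the highest. The means were 332 ± 23.8 and 221 ± 24.4 CPM (SD, n = 4), a 1.503-fold difference with a log2 fold change of 0.59 (SE 0.09; edgeR adjusted p = 1.95e-04), and 0.54 to 0.66 with any single liver left out.

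Erbb3 (chromosome 10, 128567523 to 128589652), a receptor with an impaired kinase that signals through its partners, did not pass the test. It had 157, 173, 129.9 and 144 CPM in the knockouts and 122, 128, 113 and 137 CPM in the controls, so control 282 lay above knockout 277. The log2 fold change was 0.27 (SE 0.09; edgeR adjusted p = 0.0518). Of the 18 alternatives without the erythroid covariate, 10 put it past the threshold. They included DESeq2 (0.28), median-ratio scaling (0.28) and the fits without knockout 277 (0.33), without knockout 278 (0.29) or without control 282 (0.32).

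Erbb2 (chromosome 11, 98412470 to 98437716), the partner receptor that has no ligand of its own, was scarce in both groups. Its 4 knockout livers ranged from 8.5 to 10.4 CPM and its controls from 8.12 to 13.5 CPM, which overlap. The log2 fold change was -0.19 (SE 0.18; edgeR adjusted p = 0.513). Exons of Erbb2 overlap those of Mien1 on the opposite strand, and no source used here gives the strand setting of the counting, which leaves its counts uncertain.

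Errfi1 (chromosome 4, 150853919 to 150868892), the feedback inhibitor of EGFR, did not differ beyond the spread between livers. The knockouts had 422, 363, 469.9 and 488 CPM, and the controls had 536, 527, 518 and 314 CPM. Control 282 was the lowest of all 8 livers, while the other 3 controls were the highest. The log2 fold change was -0.12 (SE 0.17; edgeR adjusted p = 0.675), and -0.28 without control 282, with an adjusted p of 0.0768. Without both knockout 278 and control 282, an alternative chosen after the data were seen, it was -0.33 and past the threshold (adjusted p = 0.0253).

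**Figure D2:**
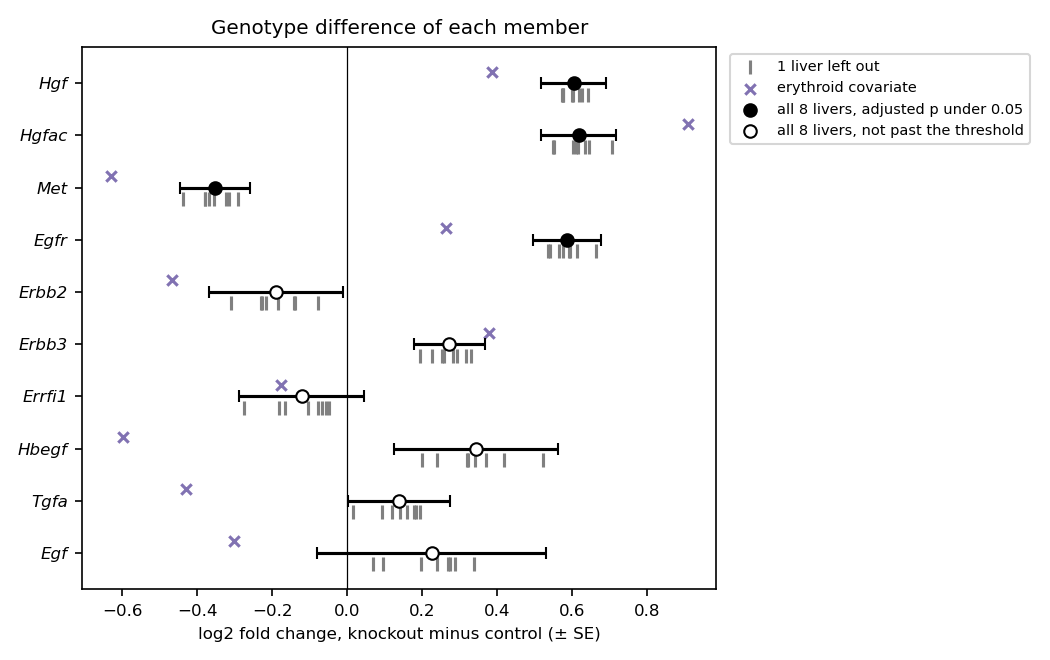
Log2 fold change of each gene, knockout minus control (circles, ± SE, filled where the adjusted p is under 0.05), with the values after leaving out each liver in turn (grey ticks) and with erythroid marker expression as a covariate (crosses). Hgf, Hgfac and Egfr lie between 0.59 and 0.62 and Met at -0.35.

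The 4 calls were lost in 1 of the 19 alternatives. With the mean expression of erythroid markers as a covariate none of the 10 passed. The log2 fold changes were then 0.39 for Hgf, 0.91 for Hgfac, 0.26 for Egfr and -0.63 for Met, so all 4 kept their direction. The median SE of these 4 went from 0.09 to 0.27, and the covariate correlated with genotype at -0.95 over the 8 livers. The other 18 alternatives each kept the calls on Hgf, Hgfac, Egfr and Met.

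The 3 EGF-family ligands among the 10 genes were low and did not pass the test. Tgfa (chromosome 6, 86195223 to 86275719), the gene of TGF-alpha, had 20.9, 18.7, 25.9 and 18.5 CPM in the knockouts and 18.4, 19.98, 17.3 and 20.8 CPM in the controls. Knockout 277 was the highest of the 8 livers, and the other 7 overlapped closely. The log2 fold change was 0.14 (SE 0.14; edgeR adjusted p = 0.533). Hbegf, the gene of heparin-binding EGF, had 9.98, 8.5, 7.69 and 6.92 CPM against 6.49, 8.85, 6.23 and 4.49 CPM, with a log2 fold change of 0.34 (SE 0.22; edgeR adjusted p = 0.304). Control 280 lay within the range of the knockouts, and the other controls lay below it.

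Egf (chromosome 3, 129677565 to 129755316) was near the bottom of the measured range. It was represented by 35 to 69 reads in the knockouts and 26 to 42 reads in the controls, or 2.12 to 3.63 and 1.74 to 2.73 CPM. The values overlapped, and the log2 fold change of 0.22 was smaller than its SE of 0.31 (edgeR adjusted p = 0.666). Exons of Egf and of Tgfa overlap annotated genes on the opposite strand, and whether their reads were separated depends on the strand setting.

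Levels of different genes were compared as TPM, in which counts are divided by exon length and scaled to the same total in each library. Errfi1 and Hgfac were the most abundant transcripts of the 10, at 194 ± 50.2 and 79.7 ± 5.20 TPM in controls (SD, n = 4). Erbb3 (30.1 ± 1.09), Met (28.6 ± 2.76) and Egfr (28.6 ± 5.43 TPM) followed and did not differ from each other beyond their spread in controls. Hgf came next with 9.38 ± 1.35 TPM, then Tgfa (4.27 ± 0.172), Erbb2 (3.07 ± 0.761), Hbegf (1.96 ± 0.544) and Egf (0.311 ± 0.063 TPM), and Erbb2 overlapped Hbegf.

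In knockout livers the order of the receptors was Egfr at 45.7 ± 1.43 TPM, Erbb3 at 39.2 ± 5.30 TPM and Met at 24.1 ± 3.20 TPM. Egfr and Erbb3 overlapped there, and both lay above Met. TPM takes no account of the composition shift that the CPM scaling corrects. On the TPM scale the groups overlapped for Met, at 20.9 to 28.4 in knockouts and 25.6 to 31.5 in controls, and did not overlap for Erbb3 (34.3 to 46.8 and 28.6 to 31.2) or Tgfa (4.51 to 6.34 and 4.01 to 4.39). TPM was therefore used for comparison between genes within a liver.

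**Figure D3:**
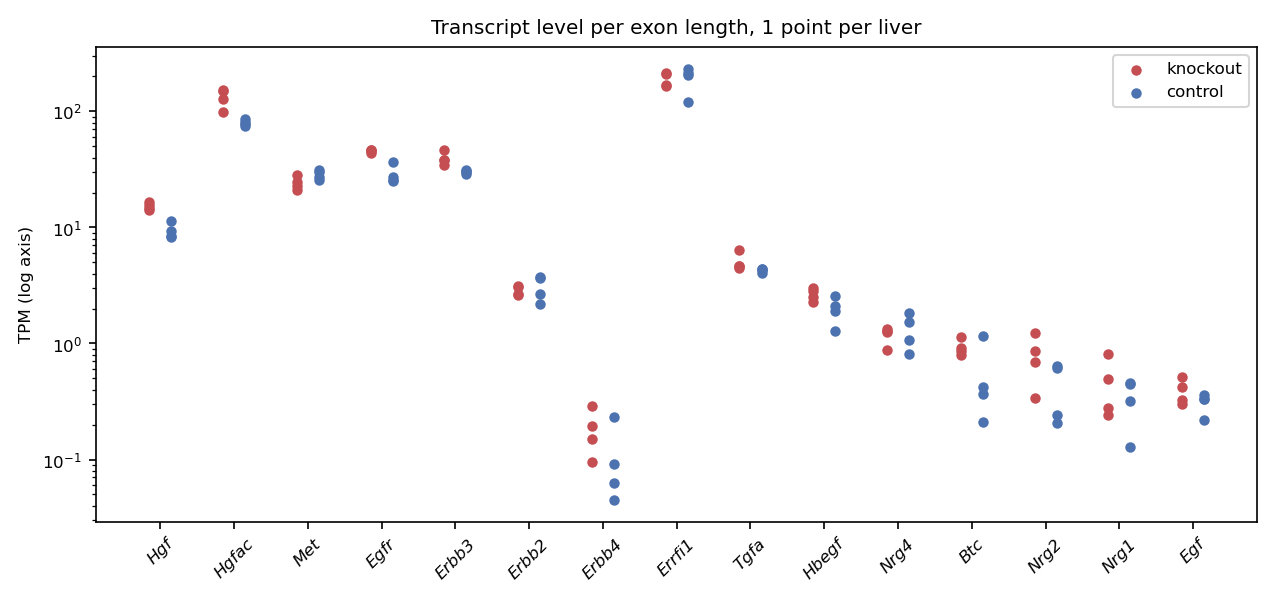
Level per exon length of the 10 genes and 5 further EGF-family genes in each liver, in TPM on a log axis; points are livers. Egfr, Erbb3 and Met lie within a factor of a few of each other, while Erbb2 and all EGF-family ligands lie well below them.

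Ratios of per-length levels within a liver do not depend on library scaling and are given as descriptions. The Hgf to Met ratio was 0.682, 0.732, 0.546 and 0.604 in the knockouts and 0.315, 0.299, 0.371 and 0.325 in the controls. All knockouts lay above all controls, with means of 0.641 ± 0.083 and 0.328 ± 0.031 (SD, n = 4). The Egfr to Met ratio was 1.92 ± 0.285 in knockouts and 0.997 ± 0.150 in controls, also without overlap (1.60 to 2.24 and 0.859 to 1.21). Met was thus as abundant per length as Egfr in control livers and scarcer than Egfr in each knockout liver.

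The inhibitor Errfi1 was 4.17 ± 0.698 times as abundant as Egfr in knockouts and 6.82 ± 1.65 times in controls (SD, n = 4). Control 282, at 4.71, lay within the knockout range of 3.53 to 4.93, and the other controls lay above it. The Hgfac to Hgf ratio was 8.64 ± 1.60 in knockouts and 8.56 ± 0.633 in controls, with overlapping values. Activator and ligand transcripts therefore kept about the same mean ratio in the 2 groups while both rose.

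**Figure D4:**
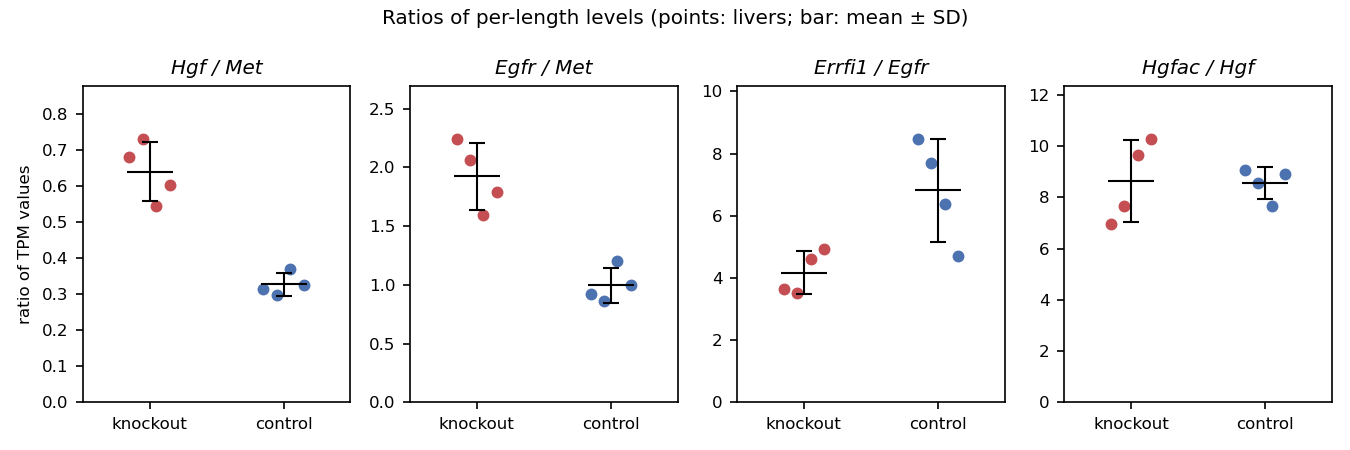
Ratios of TPM values in each liver, on linear axes that start at 0; points are livers and bars give the mean ± SD of 4. Hgf to Met and Egfr to Met are separate between knockout and control livers, whereas Errfi1 to Egfr overlaps through control 282 and Hgfac to Hgf overlaps widely.

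Among the 4 ErbB receptors, Egfr made up 52.1% ± 2.72 of the summed TPM in knockouts and 45.9% ± 3.81 in controls (SD, n = 4), with overlap. Erbb3 made up 44.4% ± 3.08 and 49.0% ± 4.26, and Erbb4, which binds neuregulins, 0.211% ± 0.105 and 0.166% ± 0.112, both with overlap. Erbb2 made up 3.29% ± 0.476 in knockouts and 4.93% ± 0.904 in controls, and here every knockout (2.76% to 3.71%) lay below every control (3.95% to 5.999%). The sum itself was higher, at 83.1 to 96.2 TPM in knockouts and 55.9 to 71.1 TPM in controls. Erbb2 alone overlapped, at 2.64 to 3.15 and 2.21 to 3.76 TPM. By these shares the pool was almost all Egfr and Erbb3 in both genotypes. Among the 11 EGF-family ligands, Tgfa was the largest share, with 43.2% ± 5.80 of the summed TPM in knockouts and 46.5% ± 3.65 in controls, and Hbegf was the next, with 22.7% ± 2.14 and 21.2% ± 5.27.

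The other EGF-family ligand genes were low as well. Of the 11, 7 had enough reads to test and none passed in edgeR, DESeq2 or limma-voom, or at an unadjusted p under 0.05. Btc, the gene of betacellulin, passed only when control 280 was left out (log2 fold change 1.34, against 0.65 with all livers). Areg, the gene of amphiregulin, had no read in any control and reached at most 0.158 CPM in a knockout.

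Other genes of HGF activation moved in both directions. Of 13 such genes, Hgfac included, 2 rose and 3 fell (38.5% of those tested), with a median log2 fold change of 0.07. F12, which encodes a clotting protease that can also cut pro-HGF, rose by 0.31 (SE 0.09), a call lost without knockout 277 or control 280 or 282. Klkb1, the gene of plasma kallikrein, fell (log2 fold change -0.48, SE 0.08), as did Serpina5, a protease inhibitor at 0.681 ± 0.421 against 2.16 ± 0.462 CPM (-1.65, SE 0.51), and F11 (-0.33, SE 0.10). The calls on Hgfac and Klkb1 held in all 8 fits without 1 liver, whereas the number of genes that fell was 1 when knockout 276 or 277 or control 279 or 281 was left out. Serpina5 lost its call in those 4 fits and without control 282. F11 lost its call in 6 of the 8 fits, all but those without knockout 278 or control 282, and also with library size alone (adjusted p = 0.0798), non-robust dispersion (0.0503) and the Y-linked covariate (0.0641). Hpn, the gene of hepsin, another HGF-cleaving protease, was 213 ± 17.2 against 227 ± 17.5 CPM (adjusted p = 0.523).

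Of 9 ligand-shedding genes, 8 were tested, none rose and 2 fell, a share close to the 20.7% called over all genes tested. In either direction 5 had an unadjusted edgeR p under 0.05. That count is a description only, because no share of all genes at the unadjusted threshold is given beside it. With library size as the only scaling 2 rose. In limma-voom, with upper-quartile scaling, with the 1 CPM filter and without knockout 278 or control 279 or 280, 1 rose, while DESeq2 gave 0. Adam10, which encodes a sheddase, was 104 ± 1.09 CPM in knockouts and 144 ± 14.9 CPM in controls and fell (log2 fold change -0.47, SE 0.09). Its 4 knockout values, 105, 103, 105 and 104 CPM, were nearly equal. Adam12 (-0.34, SE 0.12) lost its call in 7 of the 8 fits without 1 liver, all but the one without knockout 275, and in DESeq2 and limma-voom. Adam17, the main sheddase of TGF-alpha, had a log2 fold change of 0.08 (SE 0.12) and did not pass. The other genes with an unadjusted edgeR p under 0.05 had positive log2 fold changes and did not pass either. They were Rhbdf1 (0.41, edgeR adjusted p = 0.0528), Rhbdf2 (0.30, 0.114) and Adam9 (0.22, 0.129).

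Of 18 genes that attenuate receptor signalling, Errfi1 included, 2 rose and none fell (11.1% of those tested), and with library size as the only scaling 5 rose. Cblb, a ubiquitin ligase that marks receptors for degradation, rose by 0.47 (SE 0.09), with 48.0 to 50.0 CPM in knockouts and 32.0 to 37.2 CPM in controls. Ptpn1, a tyrosine phosphatase, rose by 0.41 (SE 0.09).

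Of 24 adaptor and kinase genes between receptor and nucleus, 3 rose and 1 fell (16.7% of those tested), with a median of -0.01. Stat3, a transcription factor that MET, EGFR and cytokine receptors activate, rose from 167 ± 13.1 to 220 ± 14.1 CPM (log2 fold change 0.39, SE 0.08). The kinase gene Araf rose by 0.36 (SE 0.09), as did Pik3ca by 0.39 (SE 0.11), a call lost without knockout 275 or 276 or control 279. Pik3r1, which encodes a regulatory subunit of PI3-kinase, fell (-0.35, SE 0.09). Leaving out knockout 275 or 276 or control 281 raised the number that fell to 2.

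Of 17 feedback and target genes of the ERK kinases, which act below both receptor families, 6 rose and 1 fell (41.2% of those tested), with a median of 0.41. Egr1, an immediate early transcription factor, had 206, 243, 95.2 and 107 CPM in the knockouts and 20.5, 19.2, 31.9 and 39.97 CPM in the controls. The groups were far apart, and knockouts 275 and 276 were well above 277 and 278 (log2 fold change 2.55, SE 0.43; edgeR adjusted p = 0.00837). Fos rose by 1.69 (SE 0.37). Spred1, which encodes an inhibitor of the RAS pathway, rose by 0.67 (SE 0.09), with 85.3 to 99.8 CPM in knockouts and 52.0 to 63.7 CPM in controls.

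Dusp5, a nuclear phosphatase of ERK, rose by 0.997 (SE 0.16), the ETS factor gene Etv5 by 0.66 (SE 0.15) and Spred2 by 0.41 (SE 0.11). Ccnd1, the gene of cyclin D1 and a classical mitogen target, fell, with 50.6 ± 5.93 against 72.2 ± 12.3 CPM (-0.51, SE 0.12). Not every feedback gene followed, since Dusp6 (0.20, SE 0.10) and Spry4 (-0.56, SE 0.25) did not pass. Without knockout 278 Spry4 passed at -0.76, as it did in DESeq2 (-0.56), limma-voom (-0.66) and with no low-count filter (-0.56), so that 2 genes of the list fell.

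Mki67, the proliferation antigen gene, was 550 ± 109 CPM in knockouts and 1474 ± 196 CPM in controls, and fell (log2 fold change -1.42, SE 0.14) in the livers in which Hgf, Hgfac and Egfr rose. Proliferation markers summed to 819 to 1182 CPM in knockout and 2102 to 2704 CPM in control livers. Erythroid markers fell in the same livers, in 15 of 15 genes. With the erythroid covariate the log2 fold change of Mki67 was -0.28 (SE 0.26; edgeR adjusted p = 0.873). That covariate correlated with genotype at -0.95, so this fit cannot separate genotype from erythroid marker expression. Whole tissue does not show which cells account for the fall, and the part of hepatocytes in it was not tested.

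Of 9 genes of cytokines and their receptors that prime hepatocytes for division, 4 rose and none fell (44.4% of those tested), with a median of 0.35. Il6st, the shared receptor chain gp130, had 349, 350.4, 351 and 309 CPM in the knockouts and 227, 229, 227 and 205 CPM in the controls. Groups were well apart, and the log2 fold change was 0.61 (SE 0.08; edgeR adjusted p = 3.86e-05). The receptor genes Osmr (1.06, SE 0.20) and Lifr (0.35, SE 0.08) rose too, as did Tnfrsf1a (0.29, SE 0.09), which lost its call in 6 of the 8 fits without 1 liver, all but those without knockout 277 or control 280. Il6ra, the ligand-binding chain for interleukin 6, did not pass (-0.06, SE 0.10).

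Of 16 genes of the TGF-beta and activin pathway, which restrains hepatocyte growth, 4 rose and 1 fell (31.2% of those tested), with a median of 0.25. Inhbc, an activin subunit of hepatocytes, fell, with 63.3 ± 8.88 against 102 ± 16.04 CPM (-0.68, SE 0.12), while Inhbb rose by 0.58 (SE 0.14). Smad7, a feedback inhibitor of the pathway, rose by 0.35 (SE 0.10), and the receptor genes Tgfbr2 (0.32, SE 0.11) and Tgfbr3 (0.34, SE 0.11) rose. Only 1 gene rose without knockout 275 or 277 or control 282, and 2 without knockout 276 or with a covariate of Y-linked genes. Smad7 lost its call without knockout 275, 276 or 277 or control 280 or 282, and Tgfbr3 without knockout 275 or 277 or control 279, 281 or 282. Tgfbr2 lost its call in 6 of the 8 fits without 1 liver, all but those without control 279 or 280, and also in DESeq2 (adjusted p = 0.0507), limma-voom (0.0524), with non-robust dispersion (0.0673) and with the Y-linked covariate (0.0517).

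**Figure D5:**
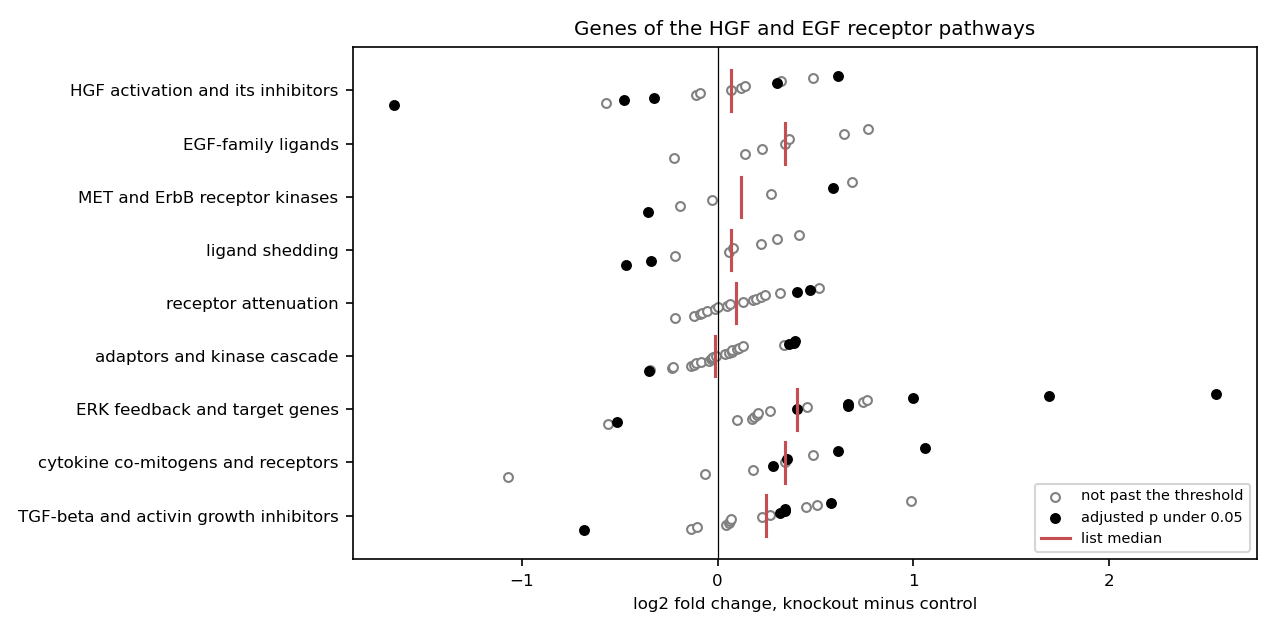
Log2 fold change (knockout minus control) of every tested gene in 9 pathway lists; filled points have an adjusted p under 0.05 and red lines are list medians. ERK feedback and target genes have a median of 0.41, with Egr1 farthest to the right at 2.55.

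Over the 9 lists together 22 genes rose and 9 fell. Over all genes tested 20.7% were called, with 9.27% higher and 11.4% lower. By list the share called ran from 0% of the tested EGF-family ligands to 44.4% of the cytokine genes. The lists were drawn up with results on these livers known, so their counts are descriptions and no set test was made.

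The genes most like Egfr, Hgf and Met in their pattern over the 8 livers were found among 12178 genes with a mean of at least 5 CPM. Likeness was the root mean square difference of log2 CPM after each gene was centred on its own mean. Hip1r, a clathrin adaptor of endocytosis, was nearest to both Egfr (0.056) and Hgf (0.048). For Egfr, Casp8 (0.066) and Shisa5 (0.068) followed, and Hgf itself ranked as the fifth at 0.076. For Hgf, Chd7 (0.063) and Tor1b (0.063) followed. For Met, the nearest were Oaf (0.037), Pcbd1 (0.040) and Lamtor2 (0.046). All 8 genes passed the edgeR test in the direction of the gene they resembled, which the measure favours.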

How the data were processed

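RNA of whole liver was isolated with Trizol and a column kit, per the labels' protocols. Values are read counts per Ensembl gene in whole numbers, deposited by the authors. They aligned reads with Rsubread 2.20.0 (BiocManager 1.30.26, R 4.4.1), per the labels' protocols, and the submitters' processing notes name featureCounts. The labels write the build as GRMm38, taken here to be GRCm38. Which annotation, strand setting and handling of multi-mapping reads were used is not given in the sources used here. GENCODE M21 gave a symbol, position and exon length to 48058 of 48440 genes.

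Each library is 1 animal, and no 2 of a group agreed within sampling noise (chi-square over its degrees of freedom, 12.9 to 24.0). Counts were tested with edgeR 4.0.16 (R 4.3.3) by the robust quasi-likelihood F-test, after filterByExpr (minimum count 10, minimum total 15) and TMM scaling, with Benjamini-Hochberg adjustment over 18274 genes. Each SE was derived from the log2 fold change and its F statistic. CPM use TMM library sizes, and log2 CPM a prior count of 2. The alternatives tried were scaling by median ratio, upper quartile or library size alone, no low-count filter, at least 1 CPM in 4 libraries, DESeq2 1.42.0, limma-voom 3.58.1 with quality weights, non-robust dispersion, erythroid and Y-linked covariates, and each liver left out. The Y-linked covariate, the mean log2 CPM of Y-linked genes, stood in for sex. It was 5.67 to 5.70 in knockout 277 and controls 279 and 281, and -3.02 to -2.44 in the other livers. The groups were thus not balanced for it. Figures used matplotlib 3.10.9.

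The genes and lists were chosen with earlier results of these data known. The naming rule took the 10 genes, Myo5b, Mki67, the 3 smallest p in each pathway list among called genes, further called genes above 2-fold without overlap, and the 3 nearest genes of Egfr, Met and Hgf. Other genes, such as F11, Pik3ca, Tnfrsf1a, Tgfbr2, Tgfbr3, Spred2, Ccnd1, Spry4, Btc, the listed markers and those given as not passing, were named after their values were seen.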

Additional observations from a re-analysis of the deposited data

Results flagged for a closer look

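A single liver stood apart from the other 3 of its group for 2 of the 10 genes. In control 282 Errfi1 was 314 CPM, against 518 to 536 CPM in the other controls. In control 280 Met was 171 CPM, against 143 to 146 CPM in the other controls. The gap to the nearest control was 91.7% and 89.0% of the group's whole range. Chance gives about 1 such case in 20 groups of 4 values. In all 30 groups were examined and 2 cases found, which is near that rate. The Met call held without control 280, at a log2 fold change of -0.29 (edgeR adjusted p = 0.0457).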

How the results depend on the processing

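Over 19 alternatives and 42 genes, 675 of 798 fold changes kept their direction and side of the threshold. With the erythroid covariate, 23 genes were higher and 16 lower over all genes, and the counts were 0 and 0 for the 10 genes and 0 and 0 for the pathway lists. That covariate also turned Hbegf (-0.60), Tgfa (-0.43), Egf (-0.30), Inhbb (-0.23), Smad7 (-0.19), F11 (0.0015), Pik3ca (-0.024), Tgfbr3 (-0.20) and Spry4 (0.29), and the cause was not tested. Without knockout 278 and control 282 together, 2 of the 10 genes were lower, the added one being Errfi1. With each liver left out in turn, 1223 to 1762 genes were higher and 1699 to 2167 lower over all genes, 3 to 4 of the 10 genes were higher and 1 was lower, and 17 to 25 pathway genes were higher and 6 to 9 lower. With library size as the only scaling, 57.6% of called genes were higher, against 44.8%. The fold change of Egf, with 26 to 69 reads per liver, had the largest SE of the 10 genes (0.31). No paired analysis was possible because the litter of each pup is not given.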
